A study of Mus musculus with 2 samples.

Results

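The mRNA levels of 10 genes of cytochrome P450 family 4 (Cyp4) were compared between regenerating livers of mice with and without PPARβ. The members were chosen by name, as the rows of the deposited table that hold the symbols Cyp4a10, Cyp4a12a, Cyp4a12b, Cyp4a14, Cyp4a31, Cyp4a32, Cyp4f13, Cyp4f14, Cyp4f15 and Cyp4v3, out of 33224 gene symbols with a value. All 10 were found, each in 1 row. The data were 2 RNA-sequencing libraries of total RNA from whole liver of male C57BL/6 mice, 1 wild type (WT) and 1 PPARbeta-null (KO). Both livers had regenerated for 48 hr after partial hepatectomy (PH), a time that the sample labels do not give. The labels gave an age of 4 months for both, whereas the design text names 3 months and the growth protocol 3 to 5 months. Food was given ad libitum, and no treatment other than surgery was named. Whether a library held RNA from a single mouse or a pool was not stated. With 1 library per genotype, no value carries an error between mice, no test across mice was possible, and a difference between the libraries cannot be told apart from a difference between individual animals.

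Enzymes of this family are hydroxylases of the endoplasmic reticulum that oxidize the terminal (omega) carbon of fatty acids. The products are turned into dicarboxylic acids by alcohol and aldehyde dehydrogenases and are then shortened in peroxisomes. Cyp4a10 and Cyp4a14 are classic liver targets of PPARα, the sister receptor of PPARβ, and their mRNAs are known to be induced by fasting and by peroxisome proliferators. Cyp4a12a is the male-predominant fatty acid omega-hydroxylase of the mouse, and the Cyp4f enzymes act mainly on leukotrienes and other eicosanoids.

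Levels are given in FPKM, the fragment count divided by transcript length and by library size, so that genes of different length can be set side by side. From the low values of single-exon genes, 1 FPKM on a transcript of 1 kb was estimated to be worth 53.8 fragments for WT and 53.2 for KO. Ratios are those of the deposited FPKM, and log2 values used FPKM + 0.1, which understates the difference of low genes. A gene was called when the libraries differed by more than 2-fold on that scale, and was counted as expressed when the mean of both libraries was at least 1 FPKM. Such a call is a size, not a test. Genes named as the most abundant of a list are those with the highest mean of both libraries, and their order can differ within a library. Intervals in the text are exact (Clopper-Pearson) 95% intervals of the ratio from the estimated fragments. They cover counting error only, not the difference between mice or the sharing of reads between similar genes. Ppard, the targeted gene, was at 2.67 FPKM in WT against 2.42 in KO, a KO/WT ratio of 0.906 (interval 0.791 to 1.04). Which part of the gene the null allele lacks is not given in the sources used here, so the level of the whole locus is a weak check of the labels. All 8 hepatocyte markers were expressed, with a summed level of 19487 FPKM in WT against 23653 in KO. The most abundant were Apoa2 (KO/WT 1.16), Serpina1a (1.21) and Fgb (1.68), while Cyp2e1 was called higher and Cps1, of the urea cycle, lower in KO (1597 against 743 FPKM), a call that was lost when the ratios were centred on the median of all expressed symbols.

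The Cyp4a members lie side by side on chromosome 4 and several are near copies of each other, which bears on how far their values are separate measurements. The first 100 coding bases of the 6 Cyp4a members, read from the GENCODE vM1 transcripts on NCBIM37 (mm9), are shown because reads of that length from such stretches can map to more than 1 gene. Capitals mark the bases that differ from Cyp4a10 at the same place.
Cyp4a10: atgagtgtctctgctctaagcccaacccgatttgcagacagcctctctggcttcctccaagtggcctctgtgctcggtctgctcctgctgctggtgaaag
Cyp4a32: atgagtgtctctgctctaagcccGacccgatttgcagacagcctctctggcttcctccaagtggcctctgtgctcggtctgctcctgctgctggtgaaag
Cyp4a31: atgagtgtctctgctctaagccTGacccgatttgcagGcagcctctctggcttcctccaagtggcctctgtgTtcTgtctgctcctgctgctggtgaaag
Cyp4a12a: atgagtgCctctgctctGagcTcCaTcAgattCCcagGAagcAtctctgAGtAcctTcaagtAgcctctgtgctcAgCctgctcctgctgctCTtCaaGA
Cyp4a12b: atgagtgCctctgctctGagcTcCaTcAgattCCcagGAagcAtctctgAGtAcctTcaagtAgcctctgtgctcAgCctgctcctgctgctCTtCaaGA
Cyp4a14: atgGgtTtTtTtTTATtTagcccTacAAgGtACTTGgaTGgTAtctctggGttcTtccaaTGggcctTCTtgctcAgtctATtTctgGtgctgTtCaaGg
All 6 stretches lie within exon 1 of their transcript, at chr4:115190927-115191026 for Cyp4a10, chr4:115273580-115273679 for Cyp4a32, chr4:115236322-115236421 for Cyp4a31, chr4:114971733-114971832 for Cyp4a12a and chr4:115084288-115084387 for Cyp4a12b on the plus strand, and at chr4:115168619-115168718 for Cyp4a14 on the minus strand. Cyp4a32 differed from Cyp4a10 at 1 of the 100 bases and Cyp4a31 at 5, whereas Cyp4a12a and Cyp4a12b were identical to each other and differed from Cyp4a10 at 23. Cyp4a14 differed at 37.

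Over the whole coding sequence, Cyp4a12a and Cyp4a12b were 98.5% identical, Cyp4a10 and Cyp4a32 97.2%, Cyp4a10 and Cyp4a31 96.6%, and Cyp4a31 and Cyp4a32 96.0%. Of the coding windows of 100 bases, the read length, 41.5% of those of Cyp4a12a were found without a mismatch in Cyp4a12b, and 70.4% with at most 2 mismatches. For Cyp4a10, 17.9% of windows had an identical copy in another Cyp4 transcript and 70.2% one with at most 2 mismatches, and the second share was 61.7% for Cyp4a32 and 46.4% for Cyp4a31. No window of Cyp4a14 or Cyp4v3 had such a copy, and for the Cyp4f members the share was at most 2.57%. How reads that map to several places were counted is not given in the sources used here. The values of Cyp4a10, Cyp4a31 and Cyp4a32, and those of Cyp4a12a and Cyp4a12b, are therefore uncertain as single genes and are also given as sums.

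**Figure D1:**
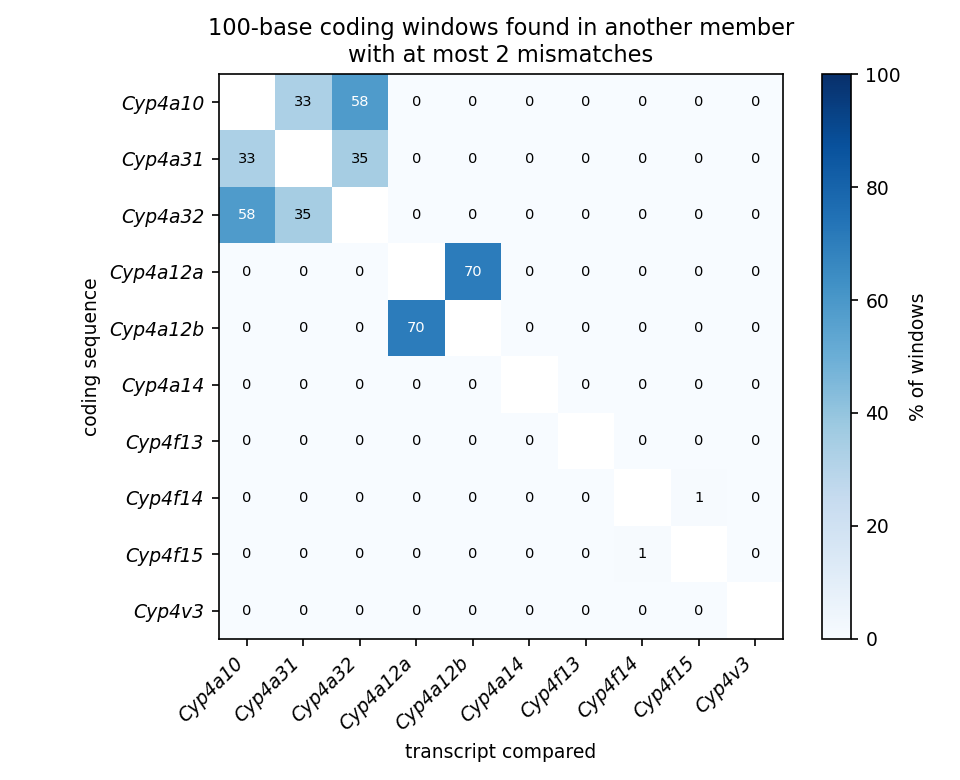
Share of 100-base windows of each member's coding sequence (rows) that occur with at most 2 mismatches in the transcript of another member (columns), in percent. Copies were found within Cyp4a10, Cyp4a31 and Cyp4a32 (33 to 58%) and between Cyp4a12a and Cyp4a12b (70%), while Cyp4a14 shared none.

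Most Cyp4a mRNAs were higher in regenerating KO than in WT livers. Of the 10 members, 4 were called higher in KO, all of them Cyp4a genes, and 1 was called lower. Among the 11723 expressed symbols, 1.71% were called higher in KO and 8.23% lower, and all 10 members were expressed. The log2 KO/WT had a median of 1.65 over the 6 Cyp4a members and of 0.61 over all 10, beside -0.24 over the expressed symbols, of which 75.6% were lower in KO. When the ratios were centred on that median, 5 members were called higher and none lower, and of all expressed symbols 315 were higher and 676 lower, in place of 201 and 965.

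**Figure D2:**
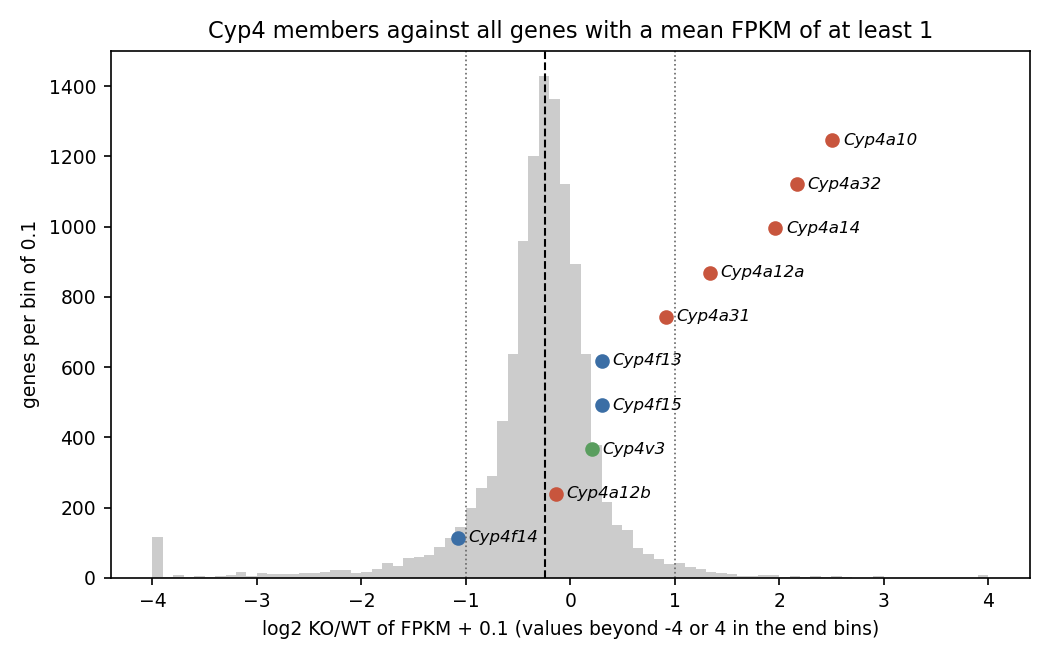
Log2 KO/WT of FPKM + 0.1 for each Cyp4 member (points, placed at rising heights for legibility; red Cyp4a, blue Cyp4f, green Cyp4v3) over the histogram of all 11723 expressed symbols (grey). Dotted lines mark 2-fold and the dashed line the median of all symbols, -0.24. The points of Cyp4a10, Cyp4a32, Cyp4a14 and Cyp4a12a lie beyond the right dotted line, and Cyp4f14 lies just beyond the left one.

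Cyp4a14 was at 77.2 FPKM in WT against 302 in KO. The KO level was thus 3.91 times the WT level (interval 3.82 to 3.99), from an estimated 10360 and 40049 fragments. This gene is a fatty acid omega-hydroxylase known for strong induction by PPARα ligands. No window of its coding sequence had a copy with at most 2 mismatches in the other Cyp4 transcripts compared. The coding sequence has 1524 bases and the longest transcript 2496. Windows outside the coding sequence were not compared, so sharing of reads there was not tested. The Cyp4a14 row spans positions 115158805 to 115168747 of chromosome 4. By level Cyp4a14 ranked 1064 among the 11723 expressed symbols in WT and 226 in KO.

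Cyp4a10 was at 39.5 FPKM in WT against 226 in KO, which was 5.71 times as high (interval 5.53 to 5.89). This was the highest ratio of the 63 expressed P450 genes and ranked 20 among all 11723 expressed symbols. Cyp4a10 (chromosome 4, 115190869 to 115206254) is the major PPARα-inducible lauric acid hydroxylase of mouse liver. Cyp4a32 (115273556 to 115294756), a near copy, was at 5.41 FPKM in WT against 24.7 in KO, with a KO/WT ratio of 4.57 (interval 4.13 to 5.08). Cyp4a31 (115236254 to 115251620), the other near copy, was at 7.27 FPKM in WT against 13.8 in KO. Its ratio of 1.90 (interval 1.76 to 2.06) was just under the 2-fold line, which lies inside the interval. Summed over Cyp4a10, Cyp4a31 and Cyp4a32, the level was 52.2 FPKM in WT against 264 in KO. The ratio of the sums was 5.06.

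Cyp4a12a (114971651 to 115005420) was at 48.5 FPKM in WT against 123 in KO, with a KO/WT ratio of 2.53 (interval 2.46 to 2.61). Its near copy Cyp4a12b (115084229 to 115111639) was at 34.3 FPKM in WT against 31.2 in KO, with a ratio of 0.907 (interval 0.869 to 0.947). Cyp4a12b was the only Cyp4a member with a ratio below 1, and centring on the median of all expressed symbols turned its log2 KO/WT from -0.14 to 0.0970. The level of Cyp4a12a was 1.41 times that of Cyp4a12b in WT and 3.94 times in KO. The sum over both genes was 82.8 FPKM in WT against 154 in KO. With a ratio of 1.86, the pair as a whole lay under the 2-fold line without rescaling. Its log2 KO/WT was 0.89, and centring (a rise of 0.24) or equal upper quartiles (0.20) would take it past that line. With the Cyp4a10 group, the Cyp4a12 pair and each other member counted once, 2 values were called higher in KO without rescaling. They were the Cyp4a10 group and Cyp4a14. Of all expressed symbols, each counted singly, 1.71% were called higher.

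**Figure D3:**
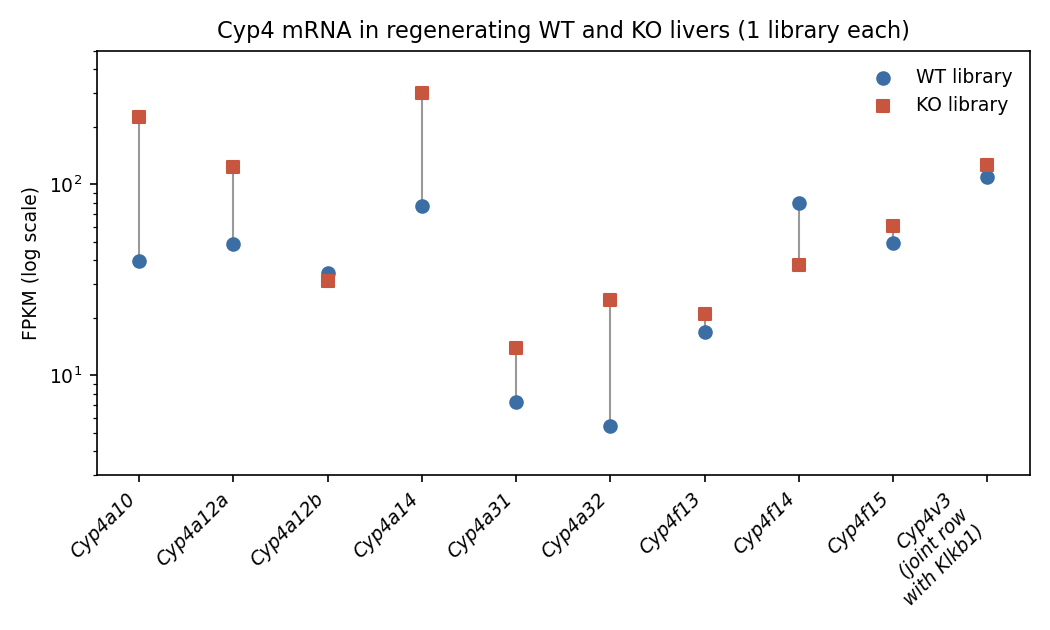
FPKM of the 10 members in the WT (blue circles) and KO (red squares) library on a log axis, joined by a line for each gene. The KO library is above the WT library for Cyp4a10, Cyp4a12a, Cyp4a14, Cyp4a31 and Cyp4a32 and, by less, for Cyp4f13, Cyp4f15 and Cyp4v3. It is below the WT library for Cyp4f14 (79.9 in WT, 37.9 in KO) and, by less, for Cyp4a12b.

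The 3 Cyp4f members, which lie together on chromosome 17, went in both directions. Cyp4f14 (33038524 to 33054271), which hydroxylates leukotriene B4 and vitamin E, was at 79.9 FPKM in WT against 37.9 in KO. It was 2.11-fold lower in KO (interval 2.03 to 2.18) and the only member called lower. After centring on the median of all symbols its log2 KO/WT was -0.84 in place of -1.07, under the 2-fold line. Cyp4f15 (32822534 to 32840297) was at 49.0 FPKM in WT against 60.4 in KO, a ratio of 1.23 (interval 1.19 to 1.28). Cyp4f13 (33061627 to 33084347) was at 16.8 FPKM in WT against 20.8 in KO, a ratio of 1.24 (interval 1.16 to 1.32). Both values were higher in the KO library but within the 2-fold line. Over the 3 genes the log2 KO/WT had a median of 0.30, whereas their sum was 146 FPKM in WT against 119 in KO, so the median and the sum differed in direction.

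Cyp4v3, the mouse counterpart of the human retinal dystrophy gene CYP4V2, shares its row with Klkb1, which encodes the plasma protein prekallikrein made by hepatocytes. The row, on chromosome 8 from 46352105 to 46419015, is wider than the annotated Cyp4v3 gene, which runs from 46391155 to 46418570. The joint level was 110 FPKM in WT against 127 in KO, a ratio of 1.16. How much of it belongs to Cyp4v3 was not resolved by these values.

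The order of the members by level differed between the libraries. In WT the joint Cyp4v3 row was first, followed by Cyp4f14, Cyp4a14, Cyp4f15, Cyp4a12a, Cyp4a10, Cyp4a12b, Cyp4f13, Cyp4a31 and Cyp4a32. In KO Cyp4a14 was first and Cyp4a10 second, then the Cyp4v3 row, Cyp4a12a, Cyp4f15, Cyp4f14, Cyp4a12b, Cyp4a32, Cyp4f13 and Cyp4a31. Close neighbours, such as Cyp4f14 (79.9) and Cyp4a14 (77.2) in WT or the Cyp4v3 row (127) and Cyp4a12a (123) in KO, cannot be ranked without a spread over mice. The level of Cyp4a14 was 0.966 times that of Cyp4f14 in WT and 7.95 times in KO. All 10 members summed to 468 FPKM in WT against 966 in KO, 2.07 times as much. Cyp4a genes made up 45.4% of this sum in WT and 74.5% in KO. Without the joint Cyp4v3 row the sums were 358 FPKM in WT against 839 in KO, 2.34 times as much, and the Cyp4a share was 59.3% in WT and 85.8% in KO.

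Of the Cyp4 genes outside the 10 members, 9 of 17 listed symbols were found and 3 were expressed. Cyp4f17 was at 5.53 FPKM in WT against 9.25 in KO (KO/WT 1.67). Cyp4f16 was 3.39-fold lower in KO, at 2.21 against 0.653 FPKM, and Cyp4b1 was at 2.61 against 1.41. Cyp4f17 and Cyp4f16 lie on the side of Cyp4f15, and Cyp4b1 on that of Cyp4a32. Across the other P450 families, 50 genes were expressed, with a median log2 KO/WT of -0.0631. Beside 1.71% and 8.23% of all expressed symbols, 3 of the 50 were called higher and 8 lower in KO. The 3 higher genes were Cyp2d40 (ratio 3.92), Cyp2c67 (2.33) and Cyp2e1 (2.23), of which Cyp2c67 was named after its value was seen. The lowest ratio was that of Cyp7a1, the rate-limiting enzyme of bile acid synthesis, at 30.1 FPKM in WT against 1.20 in KO. The other genes with the largest folds, all lower in KO, were Cyp2c70 (KO/WT 0.155), Cyp2c55 (0.230), Cyp26a1 (0.246) and Cyp2a5 (0.280). The most abundant P450 mRNAs were those of Cyp3a11, at 3926 FPKM in WT against 2202 in KO, Cyp2e1, at 1039 against 2319, and Cyp2c29, at 1276 against 1715.

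Genes inside and beside the Cyp4a cluster were read for position alone. The span from Cyp4a12a to Cyp4a32 is 323 kb, from 114971651 to 115294756, and none of the 7 other rows inside it was expressed. The nearest expressed genes on the outer sides were Pdzk1ip1, at 3.27 FPKM in WT against 0.622 in KO, and Cyp4b1, both lower in KO. The span of 262 kb on chromosome 17 from Cyp4f15 to Cyp4f13 holds 12 other rows, of which 3 were expressed. The one next to Cyp4f14 was Zfp870, at 1.42 FPKM in WT against 1.53 in KO. These neighbours were named after their values were seen.

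Promoter sequences, from 250 bases before to 50 after the start, were found for 5 of the 10 members in the RefSeq table (GRCm38.p6), namely Cyp4a32, Cyp4v3, Cyp4f15, Cyp4f14 and Cyp4f13. The entries of Cyp4a10, Cyp4a12a, Cyp4a12b, Cyp4a14 and Cyp4a31 were missing. PPAR binds with RXR to direct repeats of AGGTCA spaced by 1 base. The hexamer AGGTCA was found on neither strand of the promoters of these 5 members, while 16.3% of all 32851 promoters in the table held it. The repeat was held by 0.0396% of all promoters as AGGTCA, by 0.381% with the 4th base left free (AGGNCA), and by none of those 5 members. This says only that the letters are not in these windows.

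Other targets of PPARα were mostly higher in KO as well. Of the 25 listed targets outside Cyp4, 23 were expressed, and 7 of these were called higher in KO, none lower and 16 neither. Over all 11723 expressed symbols, 1.71% were called higher and 8.23% lower. The log2 KO/WT of the expressed targets had a median of 0.72. After centring, 11 of them were called higher, beside 315 of all expressed symbols. Plin2, a coat protein of lipid droplets, was at 142 FPKM in WT against 480 in KO (KO/WT 3.38). The ratio was 3.28 for Fabp1, the fatty acid binding protein of hepatocytes. Pdk4 (2.58), Cidec (2.54) and Vnn1 (2.04) were lower expressed and also called, as was Mgll (2.01), which was named after its value was seen. The 2 targets below 1 were Cd36 (0.712) and Ucp2 (0.739), named after their values were seen. The 2 targets under the expression limit were Fgf21, a fasting hormone, at 0.0821 FPKM in WT against 1.87 in KO, and Aqp7, a glycerol channel, at 0.107 against 0.00298, both likewise named afterwards. The list was chosen with earlier results of these libraries known, so its direction is no independent support for that of Cyp4a.

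The receptor mRNAs were within the 2-fold line. Ppara was at 24.4 FPKM in WT against 25.2 in KO, Rxra, which encodes its partner, at 91.2 against 114, and the corepressor gene Ncor1 at 24.6 against 24.7. None of the 9 expressed genes of the PPAR and RXR list was called, and the log2 KO/WT had a median of 0.00786. A level of receptor mRNA gives no measure of receptor activity, which was not measured here.

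Steps that follow omega-hydroxylation were described from lists of their enzymes. All 14 genes of peroxisomal dicarboxylic acid oxidation were higher in KO than in WT, as were 24.4% of all expressed symbols. Their median was 0.65 on the log2 scale, and 2 were called higher, or 5 after centring. Over all 11723 expressed symbols, 1.71% were called higher, and 315 symbols after centring. The lowest ratio of the peroxisomal list was that of Abcd3 (1.02), named after its value was seen. This list, too, was chosen with earlier results known. Ehhadh, the bifunctional enzyme needed to shorten dicarboxylic acids, was at 56.4 FPKM in WT against 166 in KO (KO/WT 2.95). Crot, which makes carnitine esters of shortened fatty acids, was at 137 against 323 FPKM. Of the most abundant genes of the list, Scp2 had a ratio of 1.37 and Slc27a2 one of 1.58.

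Of the 6 dehydrogenases, none was called, and the log2 KO/WT had a median of 0.44. The most abundant, Adh1, was at 1583 FPKM in WT against 914 in KO, Adh5 at 212 against 163, and Adh4 at 63.9 against 122. After centring, 1 of them, Adh4, was called higher. Aldh3a2, the fatty aldehyde dehydrogenase, was at 60.5 FPKM in WT against 99.7 in KO and was named after its value was seen. Among the redox partners of P450 enzymes, 6 of 7 were lower in KO and none was called. The exception was Por, the reductase that passes electrons to microsomal P450s, at 181 FPKM in WT against 272 in KO. Cyb5, which encodes cytochrome b5, had a KO/WT ratio of 0.831 and Pgrmc1 one of 0.773. The log2 KO/WT of the list had a median of -0.70.

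**Figure D4:**
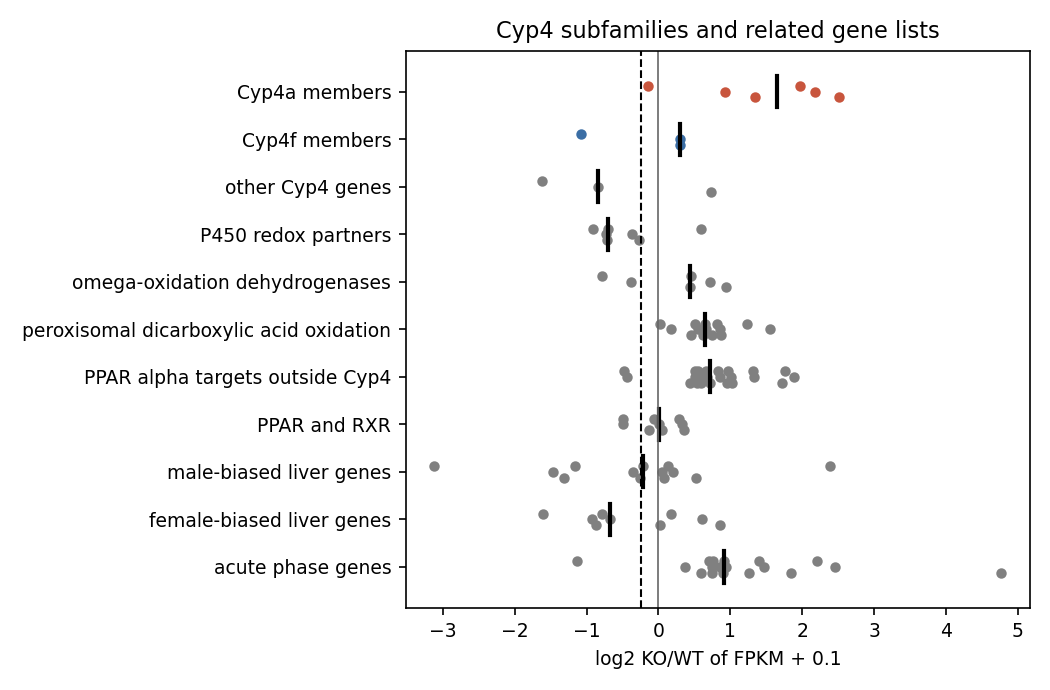
Log2 KO/WT of FPKM + 0.1 for the Cyp4a members (red), the Cyp4f members (blue) and expressed genes of related lists (grey, 1 point per gene). Short black bars are the medians of each list, and the dashed line is the median of all symbols, -0.24. The medians of Cyp4a (1.65), acute phase genes (0.91), PPARα targets (0.72) and peroxisomal genes (0.65) lie right of 0. So do those of the dehydrogenases (0.44) and Cyp4f (0.30), and that of PPAR and RXR (0.00786) is close to 0. Medians left of it are those of other Cyp4 genes (-0.85), redox partners (-0.70), female-biased (-0.67) and male-biased genes (-0.21).

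Since Cyp4a12a is expressed mainly in males, sex-biased liver genes were set beside it. Of the 13 expressed male-biased genes, 6 were higher and 7 lower in KO, with 1 called higher and 4 called lower. Over all expressed symbols, 1.71% were called higher and 8.23% lower. The log2 KO/WT of the male-biased genes had a median of -0.21, which centring turned to 0.03. Elovl3, a fatty acid elongase, was at 41.5 FPKM in WT against 217 in KO. Mup20, a major urinary protein, was at 3221 FPKM in WT against 370.3 in KO. The others called lower were Gstp1 (2.75-fold), Ugt2b1 (2.50-fold) and Nudt7 (2.24-fold, not called after centring), while Mup3, another abundant urinary protein, was at 3022 FPKM in WT against 3322 in KO. Of the 19 female-biased genes, 9 were expressed, of which 4 were higher and 5 lower in KO. Their log2 KO/WT had a median of -0.67, or -0.44 after centring. Abcd2 was the only one called, lower in KO, at 2.31 FPKM in WT against 0.690 in KO. The most abundant female-biased genes were within the 2-fold line, with Cyp2b10 at 35.1 FPKM in WT against 19.3 in KO, Cyp17a1 at 10.3 against 15.7 and Cyp2a4 at 13.4 against 7.04. After centring, Acot3, which also stands in the peroxisomal list, was called higher.

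Other features also differed between the 2 libraries, which cannot show whether they vary together with Cyp4a. Of 18 acute phase genes, 7 were called higher and 1 lower in KO, beside 1.71% higher and 8.23% lower of all expressed symbols. The list summed to 28155 FPKM in WT against 72703 in KO, and its log2 KO/WT had a median of 0.91. The called genes with the highest ratios were Saa3 (27.8), Saa2 (5.51), Saa1 (4.63), Lcn2 (3.59), Itih4 (2.76) and Hp (2.65), which encode serum proteins made in inflammation, and the gene called lower was Orm3 (2.21-fold), named after its value was seen. After centring, 11 acute phase genes were called higher and none lower, beside 315 higher and 676 lower of all expressed symbols. Markers of cells other than hepatocytes were mostly lower in KO, as were 75.6% of all expressed symbols. The 8 neutrophil markers summed to 13.6 FPKM in WT against 7.28 in KO, with Ly6g, Mpo and Camp at 0 in both libraries, and the 2 expressed ones were S100a8 (6.68 against 3.33 FPKM) and S100a9 (6.11 against 3.48). The 7 macrophage markers found summed to 59.7 FPKM in WT against 37.3 in KO, with Csf1r called lower, and Cd5l (KO/WT 0.588), Clec4f (0.611) and Marco (1.12) most abundant. Cholangiocyte markers (5) summed to 29.8 against 25.7 FPKM, with Spp1 (KO/WT 0.927) and Sox9 (0.913) most abundant and Krt19 called 3.08-fold lower. Endothelial markers (5) summed to 26.6 against 15.7 FPKM, with Stab2 (0.645), Pecam1 (0.653) and Cdh5 (0.555) most abundant and Lyve1 called 2.33-fold lower. Stellate cell markers (5) summed to 84.9 against 58.1 FPKM, with Dcn (0.749) and Rgs5 (0.673) most abundant and Col1a1 called 4.88-fold lower. Erythroid markers (4) summed to 295 against 252 FPKM, with Hba-a1 (0.813), Hbb-b1 (0.748) and Alas2 (1.82) most abundant. Centring turned the median log2 KO/WT of the cholangiocyte markers from -0.13 to 0.11, ended the calls of Csf1r and Lyve1, and added a call of Alas2 as higher. In such bulk samples, fewer cells of a type and less RNA per cell cannot be told apart. The part of inflammation or cell makeup in the Cyp4 values was not tested. Food intake and time of day at collection are not given for these libraries.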

How the data were processed

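RNA-sequencing libraries of WT and KO liver, 1 each, were analysed. As the methods and labels state, the authors aligned reads with TopHat (2.0.0) to NCBI37 (mm9), assembled transcripts with Cufflinks (1.3.0) and estimated the deposited FPKM per locus with Cuffdiff. Reads of 100 bases are called single end in the methods and paired end in the labels. The columns of the authors' own comparison (log2 fold change, test statistic, p-value, q-value and a significance flag) were not used.

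Rows marked HIDATA (21 of 38016) were left out, rows of a symbol were summed, and 850 rows with several symbols gave their value to each. Coordinates are on NCBIM37, counted from 1. The value of 1 fragment was fitted to 270 and 252 single-exon genes with low FPKM in the WT and KO library. Fragments behind a value used the longest GENCODE vM1 transcript and are approximate. Python 3.11.15 was used with biopython 1.88, scipy 1.17.1, pandas 2.3.3, numpy 2.4.6 and matplotlib 3.10.9. The fold calls were run on simulated libraries with planted changes larger than 2-fold and counting error only. Those libraries held no spread between mice and no sharing of reads between similar genes, so they are no check on either.

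The members and lists were chosen with earlier results of these data known. The genes named were all members, other expressed Cyp4 genes, Ppard, and for each list its called genes, up to 6 by fold, and its 3 most abundant expressed genes; some of these are not reported here. Of the 18 lists, 2 genes stand in a pair of lists. Protein sequences were not used here. Alternatives covered the fold, filter, pseudocount, scaling, handling of rows and the summing of near copies.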

Additional observations from a re-analysis of the deposited data

How the results depend on the processing

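With 1 library per genotype, no replicate could be left out. No paired analysis was possible because each genotype had 1 library. The 4 members called higher in KO were again 4 when FPKM sums were made equal, and 5 after centring on the median of all symbols or with equal upper quartiles, where Cyp4a31 joined them. Cyp4f14 was then not called, and 0 members were called lower in KO under both. Among the 11723 expressed symbols, 213 were called higher and 917 lower with equal sums. These counts were 295 and 716 with equal upper quartiles, and 315 and 676 after centring. Summing near copies without rescaling, an alternative chosen after seeing the data, left 2 values called higher, the Cyp4a10 group and Cyp4a14. Of all expressed symbols, each counted singly, 1.71% were called higher. The median log2 KO/WT of the Cyp4f members was 0.54 centred, 0.51 with equal upper quartiles and 0.34 with equal sums, above the 0.30 reported. Cyp4a12b changed sign under 2 of 11 alternatives, centring and equal upper quartiles, and no other member did under those run for it. Centring, equal upper quartiles and equal sums raised each log2 KO/WT by 0.24, 0.20 and 0.03.

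Among all symbols, 965 lower and 201 higher became 2235 and 468 at more than 1.5-fold, 1563 and 327 when expression was set at 0.1 FPKM, 397 and 122 at 5 FPKM, and 1676 and 384 with no filter. Centring gave 315 higher. The member with the fewest estimated fragments was Cyp4a32, with about 445 in WT. The spread between mice and the sharing of reads between near copies were not measured.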

Other observations

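Genes of the leukotriene pathway, whose products Cyp4f enzymes inactivate, were mostly low in both libraries, and 3 of 12 were expressed. Lta4h, which makes leukotriene B4, was at 14.7 FPKM in WT against 10.7 in KO, Pla2g6 at 9.99 against 7.17, and Alox5ap at 2.87 against 2.29. None was called. Cyp4f18, a leukotriene hydroxylase known from neutrophils, was at 0.278 FPKM in WT against 0.0686 in KO and was named after its value was seen.

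None of the 10 expressed genes of growth hormone signalling, which sets the sex bias of Cyp4a12a, was called, and after centring on the median of all expressed symbols 1 was called higher. That gene, Cish, was at 2.85 FPKM in WT against 5.61 in KO and was named after its value was seen, as were Bcl6 (KO/WT 0.533) and Socs2 (0.625). The receptor Ghr was at 96.4 FPKM in WT against 111 in KO, Igf1 at 292 against 260, and Igfals at 23.2 against 28.3. Over the list the log2 KO/WT had a median of -0.21, which centring turned to 0.02.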
